A study of Mus musculus with 66 samples.

Results

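The cytosolic ribosomal protein genes were taken from the gene table by symbol: every row starting with Rpl or Rps followed by a digit, together with the acidic stalk proteins Rplp0, Rplp1 and Rplp2, and without the Rps6k kinases, 6 rows named as pseudogenes and 4 rows that join several genes. This rule found 83 of 24138 rows, 50 with Rpl symbols (large ribosomal subunit) and 33 with Rps symbols (small subunit). It also takes in Rpl7l1 and Rps19bp1, which are named after ribosomal proteins but are not core parts of the cytosolic ribosome. Levels are fragments scaled for gene length and library size (FPKM) in RNA from punches of the nucleus accumbens (NAcc; ventral striatum in the labels) of male mice, C57BL/6 in the labels and of C57BL/6J background in the study's methods, aged 3 to 5 months. WT mice and iMSN-D2RKO mice were compared. In the latter a floxed dopamine D2 receptor gene is deleted by a Cre driven by the D1 receptor promoter, which acts in precursors of both kinds of striatal medium spiny neurons (MSNs), so that the receptor is lost from the indirect-pathway MSNs (iMSNs) that make it. Each mouse received saline or cocaine at 20 mg/kg at zeitgeber time (ZT) 3, 3 h after lights on, and tissue was taken at ZT7, 11, 15, 19 or 23, and further libraries from ZT3 served as the first time point of both treatments. There were 3 libraries in each of 22 groups, 66 in all, and ZT3, 7 and 11 were light hours and ZT15, 19 and 23 dark hours. The values hold no counts, so the depth behind them is unknown, and p-values measure the spread between these libraries.

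Apart from those named above, these proteins are parts of the 40S or 60S ribosomal subunit or paralogs of such parts, as are Rpl3l and Rpl39l. Most are present as a single copy in each ribosome. Their mRNAs begin with a C followed by a run of pyrimidines, the terminal oligopyrimidine tract, through which mTOR signalling sets how well they are translated. Mammalian genomes hold a single working gene for most of them and many retrotransposed copies without introns, so short reads from these mRNAs often match more than 1 place.

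Sequence around the start sites shows what the genes share that their names do not. RefSeq promoters (GRCm38.p6, the assembly of mm10) of 250 bases before to 50 bases after the start were on hand for 63 of the 83. A run of at least 8 C or T bases beginning with a C lay within 40 bases of the start, on the gene's strand, in 44 of them (69.84%), against 26.11% of 27025 genes. On the opposite strand the same run was found in 19.05% of the ribosomal protein genes and 29.19% of all genes. The letters CCGGAAG, searched on both strands of the 300 bases, occurred in 39.68% against 9.93%. Both features together were present in 31.75% against 2.27%. The stretches below, 45 bases before to 15 bases from the start, 5′ to 3′ on the gene's strand, are from genes on which the results turn: Rplp2, Rps10, Rps19 and Rpl34, which were low in some libraries, and Rps26 and Rps6, which were high in the same libraries. Capitals mark the run of C and T, which Rps19 lacks at this start. Start sites are those at the outer end of each gene.
Rplp2, chr7:141447606-141447665, plus strand: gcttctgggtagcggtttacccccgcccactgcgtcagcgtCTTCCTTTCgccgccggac
Rps10, chr17:27635230-27635289, minus strand: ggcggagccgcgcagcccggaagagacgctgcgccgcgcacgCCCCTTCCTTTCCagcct
Rpl34, chr3:130730384-130730443, minus strand: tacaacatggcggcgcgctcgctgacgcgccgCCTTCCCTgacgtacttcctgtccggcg
Rps19, chr7:24884547-24884606, plus strand: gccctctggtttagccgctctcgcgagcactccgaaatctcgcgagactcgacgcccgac
Rps26, chr10:128626492-128626551, minus strand: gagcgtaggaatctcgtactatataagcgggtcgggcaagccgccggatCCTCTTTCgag
Rps6, chr4:86857353-86857412, minus strand: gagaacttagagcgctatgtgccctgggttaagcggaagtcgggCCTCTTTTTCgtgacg

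The listed mean levels of the 83 genes ran from 0 to 1531 FPKM, although most core proteins of the ribosome are needed in about equal numbers. The highest means over 66 libraries were those of Rplp1 (chromosome 9, 61913283 to 61914510), an acidic protein of the ribosomal stalk, at 1531 FPKM (348 to 5272), Rps15 (chromosome 10, 80292431 to 80294114), a protein near the decoding site, at 998 FPKM (172 to 3354), and Rpl41 (chromosome 10, 128548110 to 128549168), the shortest ribosomal protein, at 829 FPKM (204 to 4727). In all, 19 genes had a mean of at least 100 FPKM, 31 lay between 10 and 100, 15 between 1 and 10, and 18 under 1. Rpl10l was listed at 0 in every library, and Rpl39l (mean 0.0536 FPKM) and Rpl36a (0.0943 FPKM) were the next lowest. Among those under 1 FPKM were genes of core proteins that every cell uses, such as Rpl24 (0.145 FPKM) and Rps13 (0.142 FPKM). The plot of levels by gene shows this order.

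**Figure D1:**
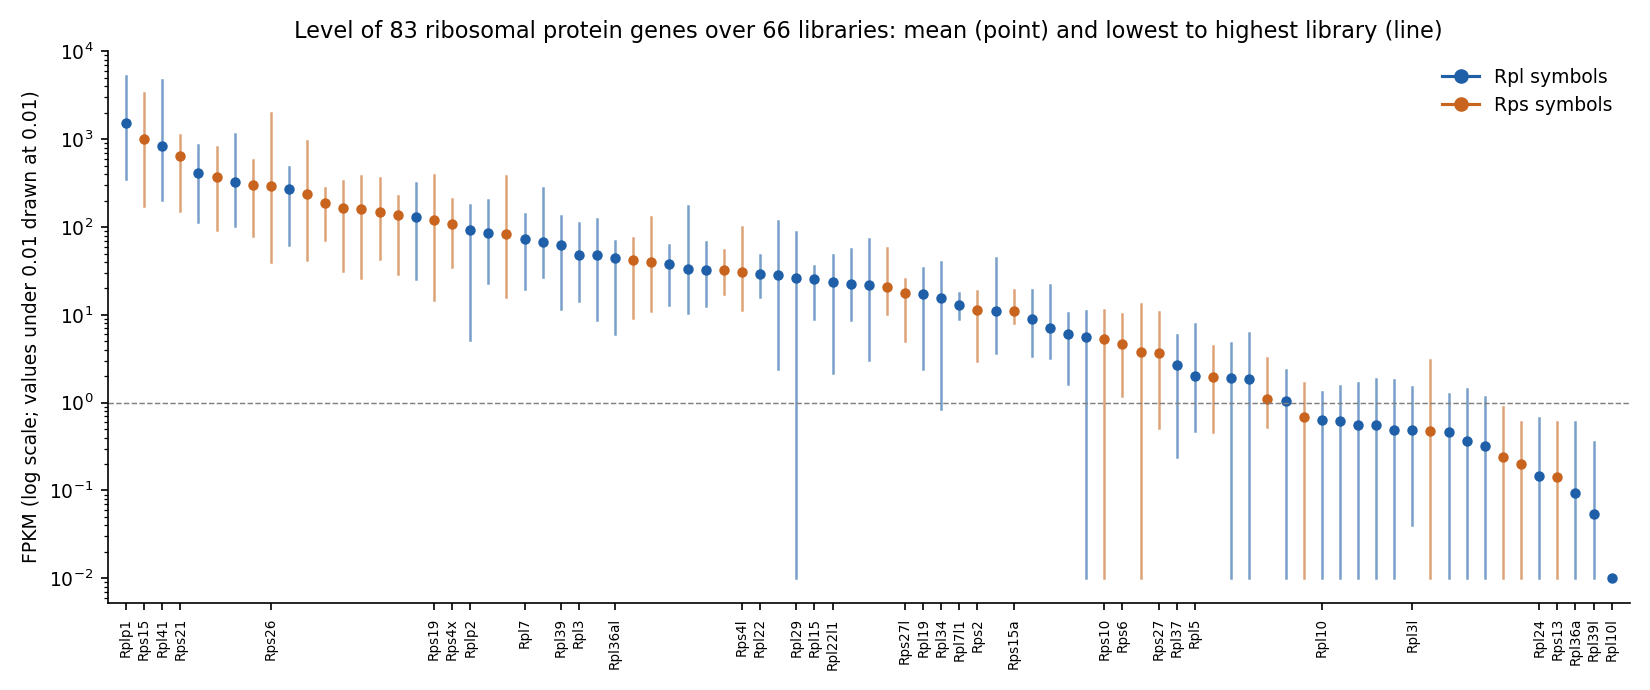
Mean FPKM of the 83 genes over 66 libraries (points, log scale) and the lowest to highest library (lines), ordered by mean, with some genes named and Rpl symbols in blue and Rps symbols in orange; values under 0.01 are drawn at 0.01 and the dashed line marks 1 FPKM. Rplp1 leads at 1531 FPKM, 18 genes have a mean under 1 FPKM, and the line of Rpl29 reaches from 0 to 88.3 FPKM.

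The low listings went with sequence shared with other genes. For 82 genes the coding sequence with 100 bases on each side was read in windows of 100 bases, the read length, and each window was looked for in the transcripts of all other genes, pseudogenes included. Of these, 71 had at least 1 window also found elsewhere and 41 had at least 50% of windows shared. The median share was 76.86% for the 18 genes with a mean under 1 FPKM, 51.15% for 45 genes from 1 to 100 FPKM, and 20.68% for 19 genes at 100 FPKM or more. Rpl24 shared 89.2% of its windows, Rps13 77.6% and Rpl36a 83.5%, while Rpl41 shared 0% and Rps15 10.2%. Across genes, Spearman's rho between the share and the mean level was -0.54, with all genes measured in the same libraries. Rpl10l and Rpl39l shared no window and were still at or near 0. Levels and differences of genes with much shared sequence are therefore uncertain, since reads could be split between copies.

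**Figure D2:**
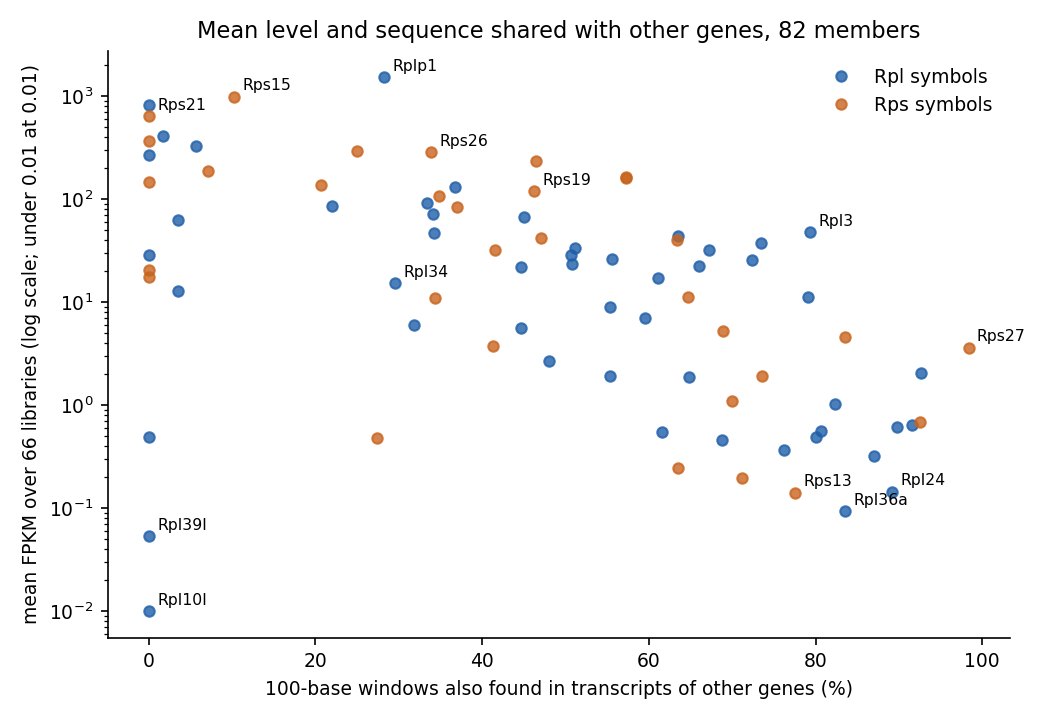
Mean FPKM over 66 libraries (log scale, under 0.01 drawn at 0.01) against the percent of 100-base windows also found in transcripts of other genes, 1 point for each of 82 genes. Genes at 100 FPKM or more lie mostly to the left (median 20.68% shared) and those under 1 FPKM mostly to the right (76.86%).

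Paralogs of the same protein differed in listed level. Rpl3, which lies near the peptidyl transferase centre, had a mean of 48.0 FPKM, with 79.4% of its windows shared, and its muscle paralog Rpl3l 0.488 FPKM. Rpl22 was at 29.1 FPKM and Rpl22l1 at 23.7 FPKM. Rpl39 was at 63.3 FPKM and Rpl39l, known from testis, at 0.0536 FPKM. Rps4x on the X chromosome was at 108 FPKM and Rps4l at 31.1 FPKM. The order ran the other way for Rpl36a (0.0943 FPKM, 83.5% of windows shared) and Rpl36al (44.3 FPKM, 63.5% shared), and for Rps27 (3.64 FPKM, 98.4% shared) and Rps27l (17.7 FPKM, 0% shared). Rpl7 was at 72.5 FPKM and Rpl7l1 at 12.9 FPKM, and Rpl10, of which 91.6% of windows were shared, was at 0.638 FPKM. FPKM is scaled for length, so these levels can be set beside each other only roughly. Shared reads and other differences between transcripts can still affect them, and this was not checked.

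Spread over the libraries also differed between genes. On the log2(FPKM + 1) scale the largest SDs over 66 libraries were those of Rpl29 (2.33), Rpl34 (1.33) and Rps19 (1.22). The smallest were those of Rpl10l (0), Rpl39l (0.0952) and Rpl24 (0.157), which are near 0 throughout. Among genes with a mean of at least 1 FPKM, chosen after their values were seen, Rpl7l1 (0.213, range 8.98 to 17.7 FPKM), Rpl15 (0.214, 8.88 to 35.6 FPKM) and Rps15a (0.231, 8.01 to 19.3 FPKM) varied least. Rpl29 was listed at under 1 FPKM in 19 libraries and up to 88.3 FPKM in others. At ZT15, for example, the 3 WT saline libraries held 0.121, 0.222 and 0.133 FPKM and the 3 WT cocaine libraries 44.8, 75.1 and 19 FPKM. At ZT19 the WT cocaine libraries held 0.149, 0.411 and 0.149 FPKM and the WT saline libraries 0, 0 and 29.6 FPKM.

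Some libraries stood apart, and these genes moved with them. On the main axis of variation within groups over 9529 other genes, which held 43.2% of that variance, 13 libraries scored 43.7 to 55.6 and the other 53 scored -35.4 to 15.1. Of the 13, 12 were from dark hours and 1 from light hours, and 6 were WT and 7 iMSN-D2RKO. By series, they made up 3 of 9 dark libraries of WT saline, 3 of 9 of WT cocaine, 4 of 9 of iMSN-D2RKO saline and 2 of 9 of iMSN-D2RKO cocaine, and 1 light library of iMSN-D2RKO cocaine. The comparisons of dark with light hours are therefore given with and without them. What sets these libraries apart was not tested, and the groups found this way are not groups of the study, so the differences are a description.

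Many ribosomal protein genes were lower in the 13 libraries. Within the 10 groups that hold libraries of both kinds, 27 of the 76 genes that reached 1 FPKM in any library were lower by over 1 on the log2 scale, against 3.48% of all 14643 genes, and 1 was higher, against 2.86%. The median log2 difference was -0.61 for the ribosomal protein genes and 0.05 for all genes. Rplp2, the partner of Rplp1 in the stalk, had a median of 16.3 FPKM (5.12 to 23.1) in the 13 libraries and 108 FPKM (26.9 to 178) in the others. Rps19, whose mutation causes Diamond-Blackfan anaemia in people, had 18.1 FPKM against 142 FPKM, and Rpl34 had 1.70 FPKM against 16.8 FPKM. Also low were Rpl22l1 (4.74 against 28.9 FPKM), Rpl39 (15.6 against 74.6 FPKM) and Rps21 (206 against 743 FPKM). Rplp2, Rps10, Rpl19 and Rps2 were lower without any overlap between the 2 sets of libraries, 4 of 76 against 4.81% of all genes. None was higher without overlap, against 6.34%. Such a count can turn on 1 library. For Rps19, Rpl34, Rpl22l1, Rpl39 and Rps21, 1 other library lay below the highest of the 13. For Rps26 and Rps6, 2 others lay above the lowest of the 13. Overlap by so few libraries was not counted for all genes.

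Not every gene went that way. Rpl41 had a median of 707 FPKM in the 13 libraries and 710 FPKM in the others, Rplp1 1263 and 1508 FPKM, and Rpl15 27.1 and 25.2 FPKM. Rps26, a small-subunit protein at the mRNA exit channel, was at 661 FPKM against 136 FPKM, and Rps6, the small-subunit protein phosphorylated by S6 kinase, at 7.72 FPKM against 3.65 FPKM. The 27 low genes had a median coding length of 435 bases a GC content of 54.4% and 34.8% of windows shared, and the 36 genes within 1 log2 had 474 bases, 50.7% and 50.9%. The run of C and T was present in 75.0% of the 20 low genes with a promoter and in 74.1% of 27 others with a mean of at least 1 FPKM. The plot of 12 genes in both sets of libraries shows that the low and high genes were measured in the same libraries.

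**Figure D3:**
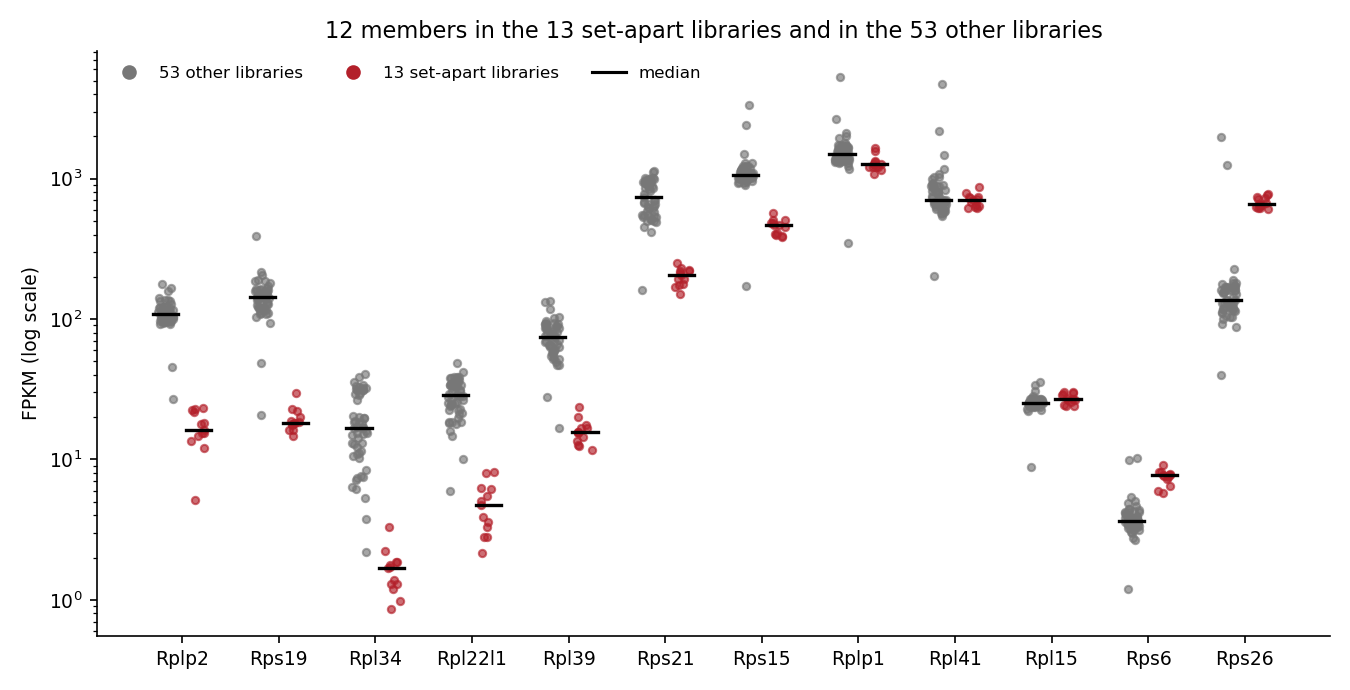
FPKM (log scale) of 12 ribosomal protein genes in the 13 set-apart libraries (red) and the 53 others (grey), with medians as bars. Rplp2 (16.3 against 108 FPKM) and Rpl34 (1.70 against 16.8 FPKM) are low in the 13, Rpl41 is level (707 against 710 FPKM) and Rps26 is high (661 against 136 FPKM).

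Other gene lists moved in the same libraries. Of 89 nuclear genes of oxidative phosphorylation, 30 were lower by over 1 log2 (median -0.61), and of 73 mitochondrial ribosomal protein genes 9 were (median -0.29). Median differences of cell type markers were -0.62 for oligodendrocytes (summed FPKM 1793 to 3612 in the 13 libraries, 1986 to 5580 in the others), 0.52 for astrocytes (307 to 397, and 181 to 419), 0.81 for cortical neurons (4.16 to 220, and 16.9 to 309), 0.52 for thalamic neurons (10.6 to 57.0, and 6.83 to 70.7), 0.47 for endothelium (96.0 to 139.8, and 74.8 to 189), -0.40 for microglia (110.2 to 158, and 92.7 to 274), -0.05 for choroid plexus (6.60 to 500.2, and 4.52 to 1141), -0.10 for blood (8.22 to 25.1, and 5.41 to 58.7) and -0.05 for spiny neurons (3548 to 5523, and 2551 to 15470). Their part in the result was not tested. In tissue RNA, fewer cells of a type and less RNA per cell cannot be told apart. Summed over the 83 genes, the 13 libraries held 5535 to 6566 FPKM. The others held 7805 to 25956 FPKM, apart from replicate 3 of WT cocaine at ZT15 (2099 FPKM).

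The lowest and the highest of these sums were those of single libraries. Replicate 3 of WT cocaine at ZT15 held the lowest sum and replicate 1 of iMSN-D2RKO saline at ZT7 the highest. The median deviation (log2) of the ribosomal protein genes from their means over all 66 libraries was -1.51 and 0.99. It was taken over genes with a mean of at least 1 FPKM. The same deviation over all genes was -0.01 and 0.05. In replicate 2 of WT cocaine at ZT19, Rpl34 (3.75 FPKM) lay just above the range of the 13 libraries (0.859 to 3.29 FPKM). Rps26 (1260 FPKM) lay above their range too (612 to 774 FPKM). The medians of the other libraries were 16.8 and 136 FPKM. A score of 15.1 did not set this library apart. Its sum of 11970 FPKM and its median deviation of 0.20 were not low. Drd2, the deleted gene, was at 99.1 to 304 FPKM (median 129) in 33 WT libraries and 78.0 to 375 FPKM (median 112) in 33 iMSN-D2RKO libraries. A gene-level value does not resolve the deleted part, so it does not check the genotype labels. The 11 markers of spiny neurons on the list, such as Ppp1r1b and Penk, were above 0 in all 66 libraries.

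Dark hours were compared with light hours in each series of 18 libraries, 9 dark and 9 light, with the ZT3 libraries in both treatments of a genotype. The 4 comparisons thus share libraries, and their values are given side by side. Each difference is dark minus light on the log2(FPKM + 1) scale, which understates the change of low genes, from limma across 14643 genes with Benjamini-Hochberg adjusted p. All called genes below overlapped between dark and light libraries.

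In WT cocaine mice 11 of 76 ribosomal protein genes were lower in dark hours and 1 was higher, where 13.7% of all genes passed, 3.79% as lower and 9.9% as higher. Without adjustment 37 genes had a p under 0.05, and 34.5% of all genes did. The median over the 76 was -0.26, against 0.06 for all genes. Rpl34 ran from 17 to 38.6 FPKM (median 31.5) in light libraries and from 1.2 to 19.6 FPKM (median 3.75) in dark libraries, a fall of -2.20 ± 0.45 (SE, adjusted p = 0.00261). The low dark values were at ZT19 (1.2, 3.75 and 1.29 FPKM), in 1 library at ZT15 (2.18 FPKM) and in 1 at ZT23 (2.23 FPKM). Rpl22l1, the paralog of Rpl22, fell from a median of 34.7 to 10.01 FPKM (-1.56 ± 0.40, adjusted p = 0.0116), with 1 dark library as high as 38.5 FPKM. The large-subunit proteins Rpl39 (median 87.4 to 28.0 FPKM, -1.38 ± 0.37) and Rpl37 (4.22 to 1.91 FPKM, -0.998 ± 0.25) and the small-subunit protein Rps21 (940 to 416 FPKM, -1.24 ± 0.33) also fell, with adjusted p of 0.0148, 0.00954 and 0.0146. The other 6 that fell were Rpl37a, Rpl36, Rps27l, Rps19, Rpl36al and Rpl29.

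Rps26 was the member that rose. It held 92.4 to 136 FPKM in the 9 light libraries and 39.9 to 1260 FPKM (median 181) in the 9 dark libraries, a difference of 1.26 ± 0.41 (adjusted p = 0.0359). Its dark values were 774, 1260 and 670 FPKM at ZT19, 153, 181 and 614 FPKM at ZT23, and 129, 137 and 39.9 FPKM at ZT15, and of the 4 highest 3 were from set-apart libraries. Without the 13 libraries the median was -0.09, with Rpl34 at -1.75 and Rps26 at 1.23. The 6 dark libraries left include replicate 3 of ZT15 and replicate 2 of ZT19. Without the set-apart libraries, replicate 3 of ZT15 and replicate 1 of iMSN-D2RKO saline at ZT7, Rpl34 was at -1.46 and Rps26 at 1.42. In both fits replicate 2 was the only library of ZT19 (Rps26 at 1260 FPKM), so that time had no replicate check. When all of ZT19 was left out as well, 0 of 76 genes passed by limma, Rpl34 was at -0.90 (adjusted p = 0.189) and Rps26 at 0.39 (adjusted p = 0.0789), and 0.0205% of all genes passed. Leaving out any 1 library kept Rpl34 called in 18 of 18 fits, Rps26 in 6 of 18 and Rpl29 in 4 of 18. Without replicate 3 of every group, however, Rpl34 was at -1.61 (adjusted p = 0.189) and 0 of 76 genes passed.

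The count of called genes in WT cocaine moved with single libraries. It was 1 without replicate 3 of ZT23, a set-apart library, and 7 without replicate 1 or 3 of ZT3, 1 or 3 of ZT7, 1 or 2 of ZT11, 3 of ZT15 or 1 of ZT19. It was 19 without replicate 1 of ZT15, 23 without replicate 2 of ZT19 and 26 without replicate 2 of ZT23. With the library score as a covariate 7 genes passed, with Rpl34 at -1.22 (adjusted p = 0.00336) and Rps26 at 0.60 (adjusted p = 0.329).

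In iMSN-D2RKO saline mice 12 of 76 genes were lower in dark hours and 1 was higher, where 27.3% of all genes passed, 9.88% as lower and 17.4% as higher. Without adjustment 29 genes had a p under 0.05, and 44.1% of all genes did. The median was -0.28, against 0.03 for all genes. Rpl34 had 8.47 to 40.5 FPKM (median 29.9) in light and 0.984 to 16.8 FPKM (median 7.65) in dark libraries, -1.90 ± 0.45 (adjusted p = 0.00737). Rpl5, which carries 5S rRNA into the large subunit together with Rpl11, had medians of 2.39 and 1.69 FPKM (-0.50 ± 0.15, adjusted p = 0.0186). The level of Rpl5 is uncertain, as 92.6% of its windows were shared. Rpl22l1 fell from 28.3 to 18.2 FPKM (-1.31 ± 0.40, adjusted p = 0.0203), Rpl37 from 3.56 to 1.88 FPKM (-0.81 ± 0.25, adjusted p = 0.0205) and Rps21 from 880 to 498 FPKM (-1.05 ± 0.33, adjusted p = 0.0227). The remaining 7 were Rpl39, Rps28, Rps12, Rps10, Rpl13, Rpl36al and Rpl3l. Fitted on these 6 groups alone, 0 of 76 genes passed by limma, and 0 of all genes, with Rpl34 at an adjusted p of 0.110, and 0 of 76 passed with the library score as a covariate (Rpl34 at -0.76, adjusted p = 0.0962).

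Rps15a, a small-subunit protein, was the member that rose here, from a median of 10.2 FPKM (9.39 to 12.2) to 11.7 FPKM (9.71 to 19.3), 0.26 ± 0.10 with an adjusted p of 0.0481. It was called in 7 of 18 fits that left out 1 library, and not with the replicate block (adjusted p = 0.0525), with median-ratio size factors (adjusted p = 0.0986) or with no filter on low values (adjusted p = 0.0624). Without the 13 libraries, of which 4 are in this dark group, 0 of 76 genes passed by limma (0.225% of all genes), and the median was 0.04. Rpl34 was then at -0.73 (adjusted p = 0.432), Rpl5 at -0.47 (adjusted p = 0.272) and Rps15a at 0.05 (adjusted p = 0.875). Leaving out replicate 2 of ZT15 or replicate 3 of ZT23 left 1 gene called, and leaving out replicate 1 or 3 of ZT19 left 2. All 4 belong to the 13. Leaving out replicate 2 of ZT19 or of ZT23, which do not, gave 33 and 28 called genes. It was 7 without replicate 2 of ZT11 or 3 of ZT3, and 8 without replicate 3 of ZT11 or 1 of ZT7.

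**Figure D4:**
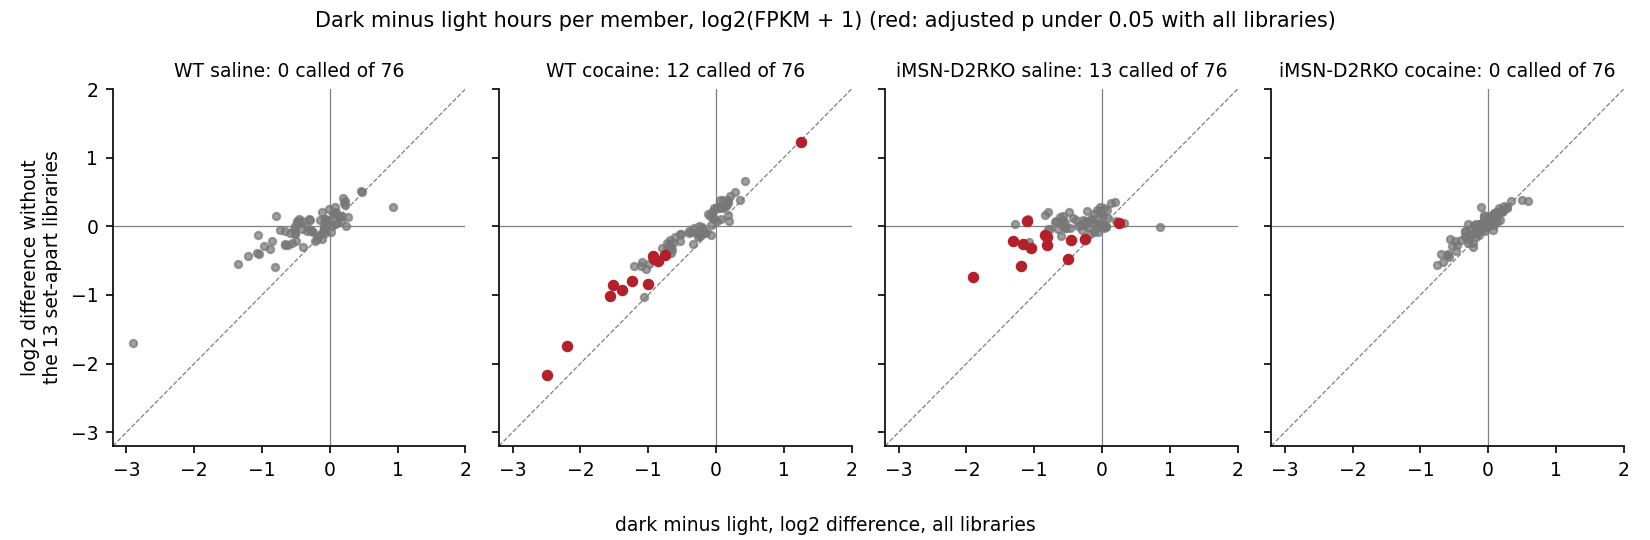
Dark minus light difference of each of 76 ribosomal protein genes, log2(FPKM + 1), with all libraries (horizontal) against the same without the 13 set-apart libraries (vertical), 1 panel for each series; red points passed an adjusted p of 0.05 with all libraries and the dashed line marks equal values. The 12 red points of WT cocaine lie at -2.16 to 1.23 on the vertical axis, the 13 of iMSN-D2RKO saline at -0.73 to 0.08.

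In WT saline mice 0 of 76 genes passed by limma, where 2.75% of all genes passed, with 20 at an unadjusted p under 0.05, where 27.2% of all genes were. The smallest p belonged to Rpl29 (-2.90 ± 0.87, adjusted p = 0.0520), Rps28 (-1.20 ± 0.39, adjusted p = 0.0628) and Rpl34 (-1.36 ± 0.45, adjusted p = 0.0693). The median was -0.20 with all libraries and -0.02 without the 13, when 0.109% of all genes passed. Fitted on these 6 groups alone, 17 genes passed, and leaving out single libraries gave 1 (replicate 1 of ZT11, 3 of ZT7 or 3 of ZT23), 2 (replicate 2 of ZT23) or 11 (replicate 3 of ZT19). In iMSN-D2RKO cocaine mice 0 passed by limma, where 0.942% of all genes passed, with 3 at an unadjusted p under 0.05, where 12.5% of all genes were. Rpl37 (-0.54 ± 0.25, adjusted p = 0.354) and Rpl36 (-0.59 ± 0.28, adjusted p = 0.372) were among them, and the median was -0.10, or 0.02 without the 3 set-apart libraries of the series.

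A call in some series and not in others does not show that the series differ, and the differences themselves did not pass. The dark minus light difference was not called to differ between cocaine and saline in WT (0 of 76 by limma and 0% of all genes, 0 at an unadjusted p under 0.05 and 0.895% of all genes, median -0.10) or in iMSN-D2RKO mice (0 by limma and 0% of all genes, 3 unadjusted and 5.59% of all genes, median 0.36), nor between the genotypes under saline (0 by limma and 0% of all genes, 1 unadjusted and 4.14% of all genes, median -0.12). The smallest p were those of Rpl12 (0.43 ± 0.22), Rpl23a (0.41 ± 0.22) and Rpl10 (-0.31 ± 0.19) in WT, of Rpl3l (0.43 ± 0.15), Rps15a (-0.34 ± 0.16) and Rpl34 (1.47 ± 0.72) in iMSN-D2RKO, and of Rpl5 (-0.46 ± 0.21), Rpl3 (-0.47 ± 0.26) and Rps15a (0.24 ± 0.14) between genotypes. In iMSN-D2RKO mice the median of 0.36 became 0.05 without the 13 libraries.

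**Figure D5:**
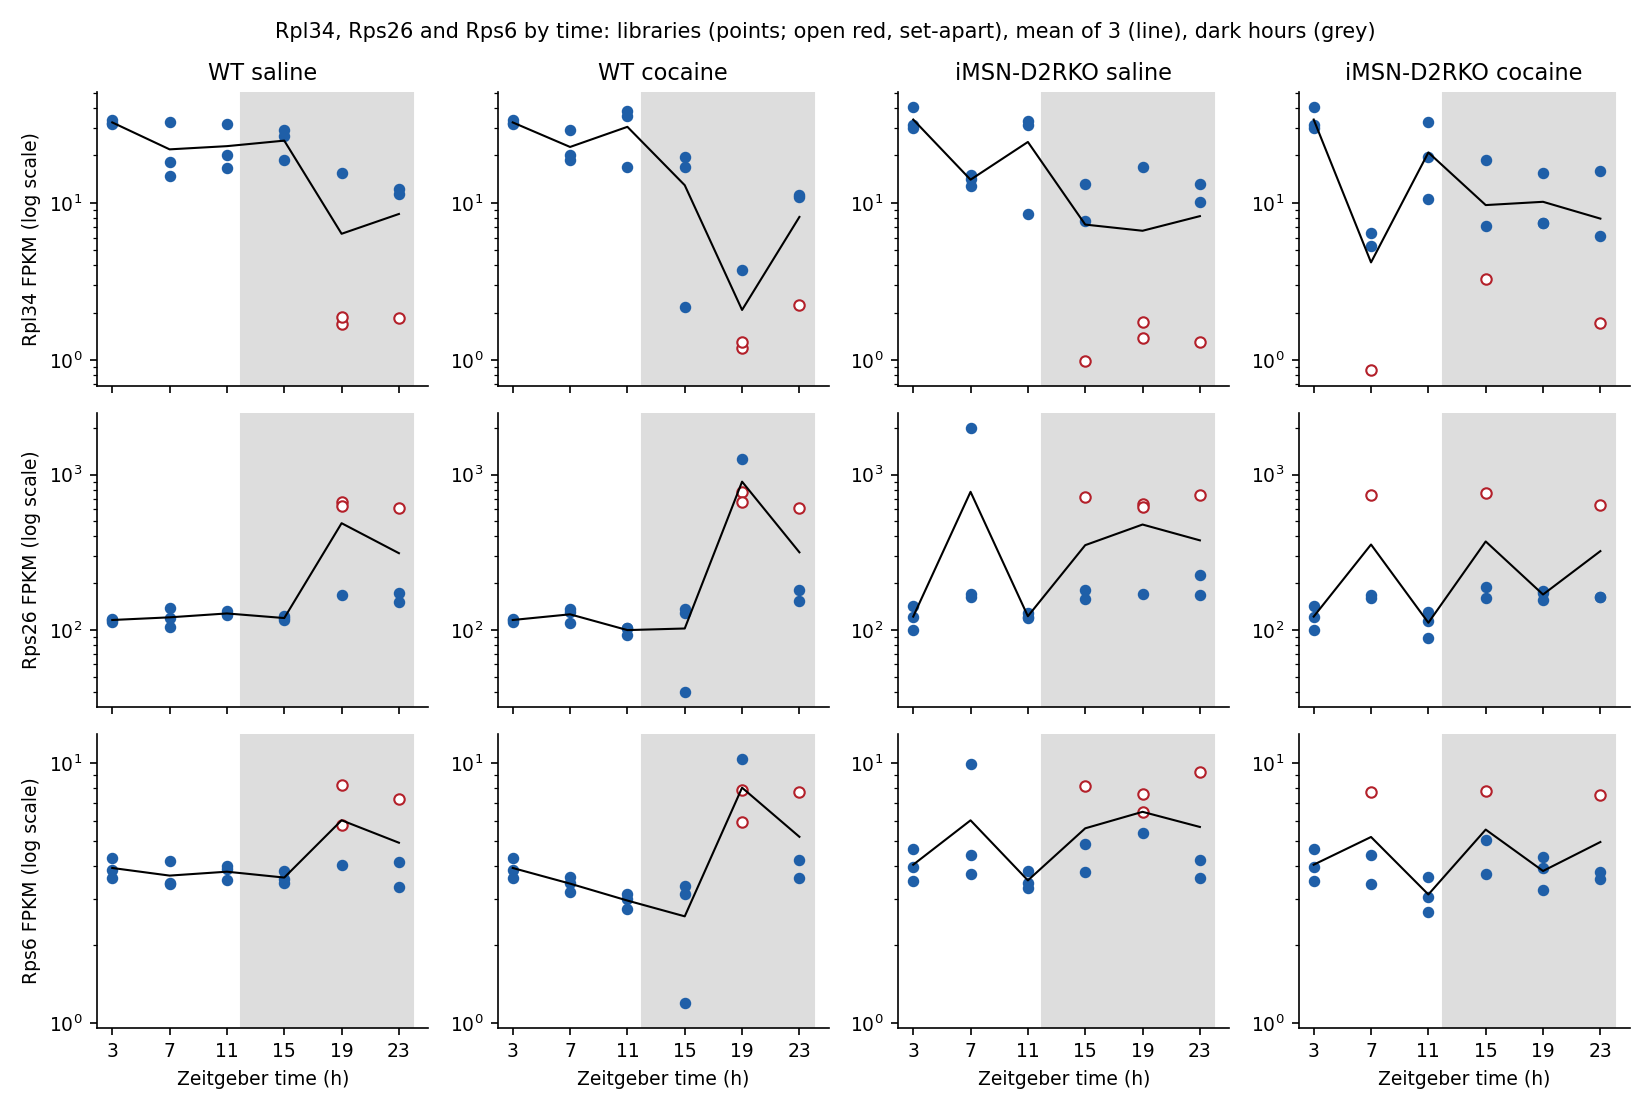
FPKM (log scale) of Rpl34, Rps26 and Rps6 by zeitgeber time in the 4 series, 1 point for each of 3 libraries per time, open red for set-apart libraries, lines through the means and grey for dark hours; ZT3 libraries appear in both treatments of a genotype. Rpl34 is at 0.984 to 3.29 FPKM in the set-apart dark libraries, Rps26 at 612 to 774 FPKM in all 13, and Rps6 at 5.80 to 9.19 FPKM in the set-apart dark libraries.

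Genes that build ribosomes, where called, were mostly higher in dark hours. With all libraries, the counts of this and the next paragraph stand beside 9.9% of all genes called higher and 3.79% called lower. In the WT cocaine series 22 of 49 ribosome biogenesis genes were higher in dark hours and 1 was lower (median 0.25). Nop56, of the box C/D particle that methylates rRNA (0.41 ± 0.07, adjusted p = 0.00124), Nol10 (0.42 ± 0.09, adjusted p = 0.00241) and Utp3 (0.93 ± 0.20, adjusted p = 0.00356), of the processome for the small subunit, were the first 3. Of 40 translation initiation factors 8 were higher and 0 lower, led by the scaffold Eif4g1 (0.36 ± 0.08, adjusted p = 0.00528), Eif3c (0.51 ± 0.12, adjusted p = 0.00528) and Eif4g3 (0.61 ± 0.15, adjusted p = 0.00872). Of 13 elongation factors and other genes with a terminal oligopyrimidine tract 3 were higher and 0 lower: Tpt1 (1.45 ± 0.45), the poly(A)-binding protein Pabpc1 (0.69 ± 0.24) and Nap1l1 (0.56 ± 0.19).

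Of 73 mitochondrial ribosomal protein genes 9 were higher and 3 lower, a share near the 13.7% of all genes, with Mrps5 (0.56 ± 0.14), Mrps31 (0.42 ± 0.11) and Mrpl15 (0.40 ± 0.11) first. Of 89 oxidative phosphorylation genes 4 were higher and 9 lower (median -0.24), among them Cox7a2 (-0.91 ± 0.25) of complex IV and the assembly factors Ndufaf7 (0.33 ± 0.09) and Ndufaf4 (0.38 ± 0.11). Of 20 genes of mTOR and Myc signalling 1 was higher, the S6 kinase Rps6kb2 (0.47 ± 0.14), and 1 lower, the mTOR subunit Mlst8 (-0.27 ± 0.08). Without the 13 libraries, where 18% of all genes passed, the counts were 22 higher and 1 lower for biogenesis and 9 and 1 for initiation factors. They were 13 and 2 for mitochondrial ribosomes and 5 and 7 for oxidative phosphorylation. These counts take ZT19 of WT cocaine from replicate 2 alone, with no replicate check there. When 3 single libraries and all of ZT19 were left out as well, 3 of 14643 genes passed (0.0205%). At most 3 of the calls in these lists could then remain. Of the markers of other cells in this series, 1 of 6 of oligodendrocytes (Mog, -0.93 ± 0.32) and 1 of 6 of astrocytes (Sox9, 0.53 ± 0.15) were called. So were 1 of 6 of microglia (Csf1r, -0.29 ± 0.10) and 1 of 5 of endothelium (Pecam1, -0.28 ± 0.09). Of the 11 markers of the spiny neurons themselves 1 was called, Adora2a (-0.64 ± 0.21). Single genes do not stand for their cell types. Their part in the differences of the ribosomal protein genes was not tested.

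In iMSN-D2RKO saline the counts stand beside 17.4% of all genes called higher and 9.88% called lower, 27.3% in all. Initiation factors and mitochondrial ribosomal protein genes were called about as often as all genes. Biogenesis genes were higher for 18 and lower for 3 of 49 (median 0.19), with Utp18 (0.53 ± 0.12), Rrs1 (0.37 ± 0.09) and Eftud1, which frees large-subunit precursors of Eif6 (0.30 ± 0.07) first. Initiation factors were higher for 9 and lower for 1 of 40, with Eif1ax (0.63 ± 0.16), Eif3a (0.92 ± 0.24) and Eif4a2 (0.29 ± 0.08) first. Nap1l1 (0.54 ± 0.19) and Pabpc1 (0.60 ± 0.24) were higher, and of mTOR and Myc genes 6 were higher and 2 lower, with Mlst8 (-0.29 ± 0.08), Myc (0.33 ± 0.11) and Larp4 (0.53 ± 0.18) first. Mitochondrial ribosomal protein genes were higher for 6 and lower for 13 of 73, with Mrpl35 (0.23 ± 0.06), Mrps16 (-0.83 ± 0.24) and Mrps18b (-0.43 ± 0.13) first, and oxidative phosphorylation genes higher for 2 and lower for 20 of 89 (median -0.35), with Ndufb4 (-1.09 ± 0.28), Ndufaf4 (0.40 ± 0.11) and Cox8a (-0.62 ± 0.18) first. Called markers were Mag, Mog and Cldn11 of oligodendrocytes (3 of 6, all lower) and Alas2 and Hbb-b2 of blood (both lower). The others were Slc1a3 of astrocytes (1 of 6, higher) and Adora2a of spiny neurons (1 of 11, lower). Without the 13 libraries none of these lists of ribosome, translation, mTOR and mitochondrial genes held a called gene. In WT saline, where 2.01% of all genes were called higher and 0.744% lower, 4 biogenesis genes were higher, Utp3 (0.82 ± 0.20), Sbds (0.41 ± 0.10) and Utp18 (0.45 ± 0.12) first, with the initiation factors Eif1ax (0.63 ± 0.16) and Eif3c (0.45 ± 0.12) and the assembly factor Ndufaf4 (0.39 ± 0.11). In iMSN-D2RKO cocaine none passed.

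Cocaine was compared with saline over the 5 times from ZT7 to ZT23. No ribosomal protein gene passed in WT (0 of 76 by limma and 0.0137% of all genes, 0 at an unadjusted p under 0.05 and 2.49% of all genes) or in iMSN-D2RKO mice (0 by limma and 0% of all genes, 2 unadjusted and 4.86% of all genes), and the medians were -0.10 and -0.07. The smallest p in WT were those of Rpl15 (-0.12 ± 0.07), Rpl23 (-0.21 ± 0.13) and Rpl27 (0.16 ± 0.10), each with an adjusted p of 1. In iMSN-D2RKO mice they were those of Rpl28 (-0.26 ± 0.10), Rpl29 (1.65 ± 0.68) and Rps20 (-0.32 ± 0.16), each with an adjusted p of 0.910. The difference between the genotypes in this effect did not pass for any (0 by limma and 0% of all genes, 1 unadjusted and 1.85% of all genes, median 0.02), with Rpl28 (-0.36 ± 0.14), Rpl27 (-0.29 ± 0.15) and Rpl23a (-0.29 ± 0.15) first.

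At single times after injection no ribosomal protein gene passed either. In WT mice the count was 0 of 76 by limma at ZT7, 11, 15, 19 and 23, with 0, 0, 11, 0 and 1 at an unadjusted p under 0.05, where 0.00683%, 0%, 0.00683%, 0.0205% and 0% of all genes passed and 1.81%, 0.683%, 6.79%, 4.9% and 1.28% had an unadjusted p under 0.05. Medians were 0.03, -0.09, -0.51, -0.05 and 0.10. The value at ZT15 rests on replicate 3 of cocaine: without it the median was 0.04. Without replicate 1 of cocaine 3 genes passed, and without replicate 2 of cocaine 4 did. The members with the smallest p at ZT15 were Rpl15 (-0.56 ± 0.16), Rpl29 (5.15 ± 1.51) and Rpl23 (-0.93 ± 0.29), with adjusted p of 0.301. Rpl15 held 8.88 FPKM in that replicate and at least 22.1 FPKM in every other library. At ZT19 the WT groups keep 1 library each without the 13, so the difference there has no replicate check. The fit then takes the spread from the other groups and assumes that the lone libraries vary like those, and its count of 4 genes, where 10.5% of all genes passed, compares 2 libraries.

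In iMSN-D2RKO mice the count was again 0 of 76 by limma at each time, with 13, 0, 1, 10 and 1 at an unadjusted p under 0.05, where 0.0137% of all genes passed at ZT7 and 0% at the others and 22.9%, 0.41%, 1.49%, 16% and 1.67% had an unadjusted p under 0.05. Medians were -0.46, -0.04, 0.07, 0.34 and -0.24. At ZT7 Rpl5 (-1.02 ± 0.26, adjusted p = 0.0934), Rpl28 (-0.80 ± 0.23, adjusted p = 0.102) and Rpl23 (-0.79 ± 0.29, adjusted p = 0.129) had the smallest p, and the median was -0.20 without replicate 1 of saline, the library with the highest sum. Without replicate 2 or 3 of saline 6 and 7 genes passed. At ZT19 the saline group holds 2 set-apart libraries and the cocaine group none. Rpl3l (0.48 ± 0.16), Rps15a (-0.50 ± 0.17) and Rpl23a (-0.63 ± 0.24) came first there, with adjusted p of 0.304, and 18 genes passed when the third saline library was left out.

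The remaining members with the smallest p at a single time all had an adjusted p of 0.951 or 1. In WT mice they were Rpl27 (0.42 ± 0.23), Rps25 (0.32 ± 0.29) and Rpl36 (0.50 ± 0.48) at ZT7, Rpl9 (-0.27 ± 0.17), Rpl12 (-0.32 ± 0.24) and Rpl7a (-0.29 ± 0.27) at ZT11, Rpl23a (0.44 ± 0.24), Rpl12 (0.41 ± 0.24) and Rps15a (0.28 ± 0.17) at ZT19, and Rpl29 (-3.04 ± 1.51), Rpl27 (0.40 ± 0.23) and Rpl28 (-0.31 ± 0.23) at ZT23. In iMSN-D2RKO mice they were Rps29 (-0.68 ± 0.39), Rpl29 (1.75 ± 1.51) and Rpl10a (-0.24 ± 0.23) at ZT11, Rpl9 (0.54 ± 0.17), Rpl31 (0.36 ± 0.25) and Rpl36 (-0.63 ± 0.48) at ZT15, and Rpl6 (-0.52 ± 0.23), Rpl27a (-0.54 ± 0.28) and Rps15a (-0.28 ± 0.17) at ZT23.

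Loss of the D2 receptor from iMSNs was addressed by iMSN-D2RKO minus WT. Under saline, ZT3 to ZT23, 0 of 76 genes passed by limma, where 0.212% of all genes passed, with 5 at an unadjusted p under 0.05, where 10.5% of all genes were. Rpl6 (0.24 ± 0.09, adjusted p = 0.303), Rpl41 (0.38 ± 0.16, adjusted p = 0.367) and Rpl28 (0.21 ± 0.09, adjusted p = 0.395) came first, and the median was 0.07. Under cocaine, ZT7 to ZT23, 0 passed by limma, where 0.109% of all genes passed, with 6 unadjusted, where 4.95% of all genes were, and Rpl27 (-0.28 ± 0.10, adjusted p = 0.694), Rpl3 (0.34 ± 0.14, adjusted p = 0.859) and Rpl6 (0.24 ± 0.10, adjusted p = 0.859) came first, with a median of 0.09. The same fits did call the spiny neuron genes Penk (0.76 ± 0.12 under saline, adjusted p = 0.000301, and 0.69 ± 0.14 under cocaine, adjusted p = 0.00889) and Drd1 (0.48 ± 0.10 under cocaine, adjusted p = 0.00905) as higher in iMSN-D2RKO mice.

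Diurnal rhythms were tested in each series with JTK_CYCLE, an exact rank test against cosine shapes with periods of 20 to 24 h, and called at a corrected p under 0.01, which corrects for the shapes tried and not for the number of genes. In WT saline 3 of 74 tested genes were called, where 9.58% of all genes were. Rpl29, a large-subunit protein, was among them, at a mean of 65.7 FPKM at ZT11 and 0.159 FPKM at ZT15 (corrected p of the exact test = 0.00507, peak ZT7). Its 3 libraries at ZT15 held 0.121, 0.222 and 0.133 FPKM, and those at ZT19 held 0, 0 and 29.6 FPKM, so that its values went far apart within a group. Without the 13 libraries its corrected p was 0.307.

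In WT cocaine 1 of 74 genes was called, where 7.57% of all genes were. This was Rps6, at means of 3.95, 3.44, 2.96, 2.57, 8.03 and 5.20 FPKM from ZT3 to ZT23 (corrected p of the exact test = 0.000755, peak ZT21, period 20 h). Its ZT19 libraries held 5.93, 10.3 and 7.85 FPKM, all above the 4.32 FPKM that was the highest of the 12 libraries at ZT3 to ZT15. Replicates 1 and 3 of ZT19 are among the 13 libraries, in which Rps6 was high. Without the 13, ZT19 kept replicate 2 alone (10.3 FPKM), so that setting has no replicate check there. Rps6 was called without ZT19, as were 242 of 14405 genes. It was not called without the replicates numbered 1 (0 genes called) or 2 (Rpl37a and Rpl39 called). Its level is uncertain, as 83.6% of its windows were shared. Next were Rps26 (0.0106) and Rpl36 (0.0108). In iMSN-D2RKO saline 0 of 76 were called by JTK_CYCLE, where 2.57% of all genes were, with 5 at a corrected p under 0.05, where 11.3% of all genes were, and Rpl3l came first (0.0106), with Rpl4, Rps12 and Rps19 among those tied next. In iMSN-D2RKO cocaine 0 of 76 were called, where 1.09% of all genes were, with 0 at a corrected p under 0.05, where 4.11% of all genes were, and Rpl21 (0.128) and Rpl7l1 (0.213) were among those of smallest p. Adjusted over all genes tested, no ribosomal protein gene passed 0.05 in any series. Whether rhythms differ between series was not tested.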

How the data were processed

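RNA from frozen NAcc punches was sequenced as poly(A), strand-specific libraries, single-end with 100 cycles. The authors aligned reads to mm10 with TopHat and Bowtie2 and deposited Cuffnorm FPKM values for 24138 genes, which hold no read counts, so the depth is unknown and no counting interval was given. The processing notes also name CASAVA 1.8.2. The 6 ZT3 libraries are listed under both treatments with identical values and were used once. The labels do not say whether animals were pooled or libraries share an animal, so p-values measure the spread between these libraries, which may be technical.

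The 14643 genes, 76 of the 83 among them, that reached 1 FPKM anywhere were fitted as log2(FPKM + 1) on 22 group means with limma 3.58.1 (R 4.3.3, trended variances), and p-values were adjusted by the Benjamini-Hochberg method over all of them, with a threshold of 0.05. JTK_CYCLE was rewritten in Python 3.11.15 (scipy 1.17.1, numpy 2.4.6) and run on 14405 genes (WT) and 14267 genes (iMSN-D2RKO) after single outlying values were screened with Dixon's test. Both steps were tested on simulated data. Transcripts for the shared windows were from GENCODE M21, and promoters from RefSeq.

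The members and gene lists were chosen with earlier results of these data known. Genes named in the text were the 3 highest and lowest by mean, the 3 of largest and smallest spread, 8 paralog pairs, up to 5 called genes in each direction of a comparison or else the 3 of smallest p, the 3 of smallest p in each rhythm series, and up to 3 of each list in a comparison that called any. Genes named for the set-apart libraries were chosen after their values were seen, as was the setting apart itself. Alternatives were the pseudocount, the filter, scaling, replicates left out, a replicate block, a covariate and the libraries fitted. Some items are not reported here.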

Additional observations from a re-analysis of the deposited data

How the results depend on the processing

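Of the counts of called ribosomal protein genes recomputed under other settings, 321 stayed within 1.5 times the reported count and 77 moved; the cause was not tested unless the setting itself left out libraries or genes. At an unadjusted p under 0.05 the dark minus light counts were 20 in WT saline, 37 in WT cocaine, 29 in iMSN-D2RKO saline and 3 in iMSN-D2RKO cocaine, the differences between treatments in iMSN-D2RKO and between genotypes gave 3 and 1, genotype gave 5 under saline and 6 under cocaine, cocaine gave 2 in iMSN-D2RKO and 1 for the difference between genotypes, and single times gave 11 (ZT15) and 1 (ZT23) in WT and 13 (ZT7), 1 (ZT15), 10 (ZT19) and 1 (ZT23) in iMSN-D2RKO. With a mean of at least 1 FPKM 1 gene passed in WT saline, and with no filter 7 in WT cocaine. Fitted on their own groups, 17 passed in WT saline and 0 in iMSN-D2RKO saline.

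The remaining settings were chosen after seeing the data where they leave out single libraries. With the library score as a covariate, 7, 0 and 2 passed for dark minus light in WT cocaine, iMSN-D2RKO saline and iMSN-D2RKO cocaine, 2 for genotype under cocaine and 1 at ZT15 in WT. Without the set-apart libraries 0 passed in iMSN-D2RKO saline and 4 at ZT19 in WT, where each group keeps 1 library, assumed to vary like the other groups. Without replicate 3 of WT cocaine at ZT15 and replicate 1 of iMSN-D2RKO saline at ZT7, 5 passed in WT saline. Without these and the set-apart libraries, dark minus light gave 3 in WT saline, 38 in WT cocaine, 7 in iMSN-D2RKO saline and 7 in iMSN-D2RKO cocaine, the difference between treatments in WT 6, cocaine in WT 4, the difference between genotypes in cocaine 3, genotype under cocaine 3 and ZT19 in WT 23, again on 1 library in each group. All counts without the set-apart libraries that use ZT19 of WT or of iMSN-D2RKO saline rest on 1 library there. Without also replicate 2 of WT cocaine at ZT19 and all of ZT19, dark minus light gave 0 in WT cocaine, 3 in iMSN-D2RKO saline and 2 in iMSN-D2RKO cocaine, and genotype 2 under saline and 1 under cocaine. Here Rps15a in iMSN-D2RKO saline reversed to -0.0232, and this was the single reversal.

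For rhythms, a corrected p under 0.05 gave 13 in WT saline, 17 in WT cocaine and 5 in iMSN-D2RKO saline, and adjustment over all genes 0 in both WT series. Without the set-apart libraries, or without these and the 2 single libraries, the counts were 1, 2 and 1. With the score removed they were 8, 6 and 1, with equal library sums 1, 7 and 1. Without ZT19 WT saline gave 0, without Dixon's test WT cocaine gave 3, and with no filter iMSN-D2RKO saline gave 1. Leaving out each replicate number in turn gave 0 to 8 in WT saline, 0 to 30 in WT cocaine and 0 to 22 in iMSN-D2RKO saline for dark minus light, 0 to 5 at ZT7 in iMSN-D2RKO, 0 to 6, 0 to 2 and 0 to 1 for rhythms in the same 3 series, and 0 to 0 elsewhere.

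Deviations of libraries with the same replicate number had a median correlation of 0.0002 over 693 pairs, 204 of them over 0.1. For libraries with different numbers the median was 0.0038. The medians give no sign that the numbers pair libraries, but they cannot exclude it. With the replicate block 11 genes passed in WT cocaine and 12 in iMSN-D2RKO saline, and no other count changed. Depth is unknown, and genes listed near 0 with shared sequence may hold reads given to copies.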
